A study of Mus musculus with 8 samples.

Results

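Germinal centre and plasma cell fate genes were followed through 8 mouse expression arrays. The 10 genes were the germinal centre factors Bcl6 and Mef2b, the plasma cell regulators Irf4, Prdm1, Xbp1 and Ell2, and Jchain, Sdc1, Slamf7 and Basp1. They were found through the gene symbols of the array's annotation, as 10 of 18193 genes with a probe set of their own. Of the 45101 probe sets, 19 carried 1 of these symbols alone, and 18 of the 19 were bright enough to be tested among 27022 tested probe sets. The remaining Ell2 probe set, 1458569_at, lay at the lowest level used, a signal of 32, on all 8 arrays. A further probe set is shared by Mef2b and Borcs8 and was assigned to neither.

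The study compared cells that do or do not express GFP from an Aid reporter, AID being the DNA-editing enzyme by which B cells switch class and mutate their antibody genes. The 4 groups of 2 arrays were BCR-ABL1 Aid-GFP-positive and BCR-ABL1 Aid-GFP-negative bone marrow cells, and Aid-GFP positive and Aid-GFP negative splenic B cells stimulated with LPS and IL4. All 4 groups came from cells with the Aid-GFP reporter. BCR-ABL1 is the fusion kinase of chronic myeloid leukaemia and of a form of B cell leukaemia, LPS is a bacterial B cell mitogen, and IL-4 is a T cell cytokine that directs class switching. The sources used here do not give the strain, the age, the time of stimulation, how BCR-ABL1 was introduced or whether the 2 arrays of a group stem from separate mice, so the p-values measure only the spread between these arrays, which may be technical.

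In a germinal centre, B cells divide and mutate their antibody genes while the repressor BCL6 holds off terminal differentiation. IRF4 and BLIMP1, the protein of Prdm1, drive the exit to the plasma cell, BLIMP1 and BCL6 repress each other's genes, and XBP1 then builds up the secretory apparatus. LPS with IL-4 drives splenic B cells to divide, to switch class and in part to become antibody-secreting plasmablasts.

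Signals below are intensities after quantile normalization, which gives every array the same distribution of values, and fold changes are differences of mean log2 signals ± standard error (n = 2 arrays a group). A probe set passed the test at a Benjamini-Hochberg adjusted p under 0.05 in a limma model of all 8 arrays. The 2 arrays of a group correlated at 0.985 to 0.998 (Pearson, over probe sets). The B lineage marker list (5 of 6 genes measured) summed to signals of 27023 to 36685 over the 8 arrays, highest in the spleen GFP-negative arrays (36327 and 36685). The 3 measured mature B cell markers summed to 348 to 351 in BCR-ABL1 GFP-positive and 855 to 860 in BCR-ABL1 GFP-negative arrays. In the spleen arrays they summed to between 9187 and 10313. The 5 pre-B cell markers summed to between 30207 and 32733 in the BCR-ABL1 arrays, against 2146 to 3822 in the spleen arrays, with Rag2 at the floor of 32 in all 4 spleen arrays. Not all 5 agreed: 4 passed as higher and 1 as lower in BCR-ABL1 than in spleen, within GFP-positive and within GFP-negative cells. The spleen GFP-negative arrays stood apart. Their 9 myeloid markers summed to 73407 and 75360, against 397 to 681 in the other 6 arrays, and their 7 T cell markers to 10553 and 11677, against 581 to 841. The myeloid markers Csf1r, Camp and Ngp were at the floor in all 6 other arrays. NK cell markers (6) summed to 6323 and 6757 against 1074 to 1321, and dendritic cell markers (4) to 1085 and 1199 against 151 to 169. Erythroid markers (2) were at the floor on every array, and the 4 stromal and endothelial markers summed to 1416 and 1835 against 586 to 813. The same 2 arrays had lower deposited trimmed means (477 and 497, against 589 to 594) and a higher ratio of the 3′ to the 5′ Gapdh control signal (1.88 and 1.93, against 1.40 to 1.48), a measure of RNA integrity. The part of these other cells and of RNA integrity in the values of the 2 spleen GFP-negative arrays was not tested. In bulk RNA, fewer cells of a type and less RNA per cell cannot be told apart.

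In BCR-ABL1 cells 4 of the 18 member probe sets differed between GFP-positive and GFP-negative arrays, against 2.8% of all tested probe sets. Of the 4, 2 were higher (Jchain and 1 of 2 Irf4 probe sets, 1.57% of all) and 2 were lower (Slamf7 and Basp1, 1.23% of all). In splenic B cells 12 of the 18 differed, which is no more than the background of 78.2%. In spleen 3 probe sets were higher in GFP-positive cells (Mef2b, Slamf7 and the other Irf4 probe set, 44.9% of all) and 9 were lower (33.3% of all). The lower ones belonged to Bcl6, Sdc1, Jchain, Basp1, Irf4 and Xbp1. The GFP effects of the 2 sources differed from each other for 12 of the 18, against 69.8% of all. The difference was positive for 9 (29.5% of all) and negative for 3 (40.3% of all). These comparisons share arrays, so their counts are not independent.

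**Figure D1:**
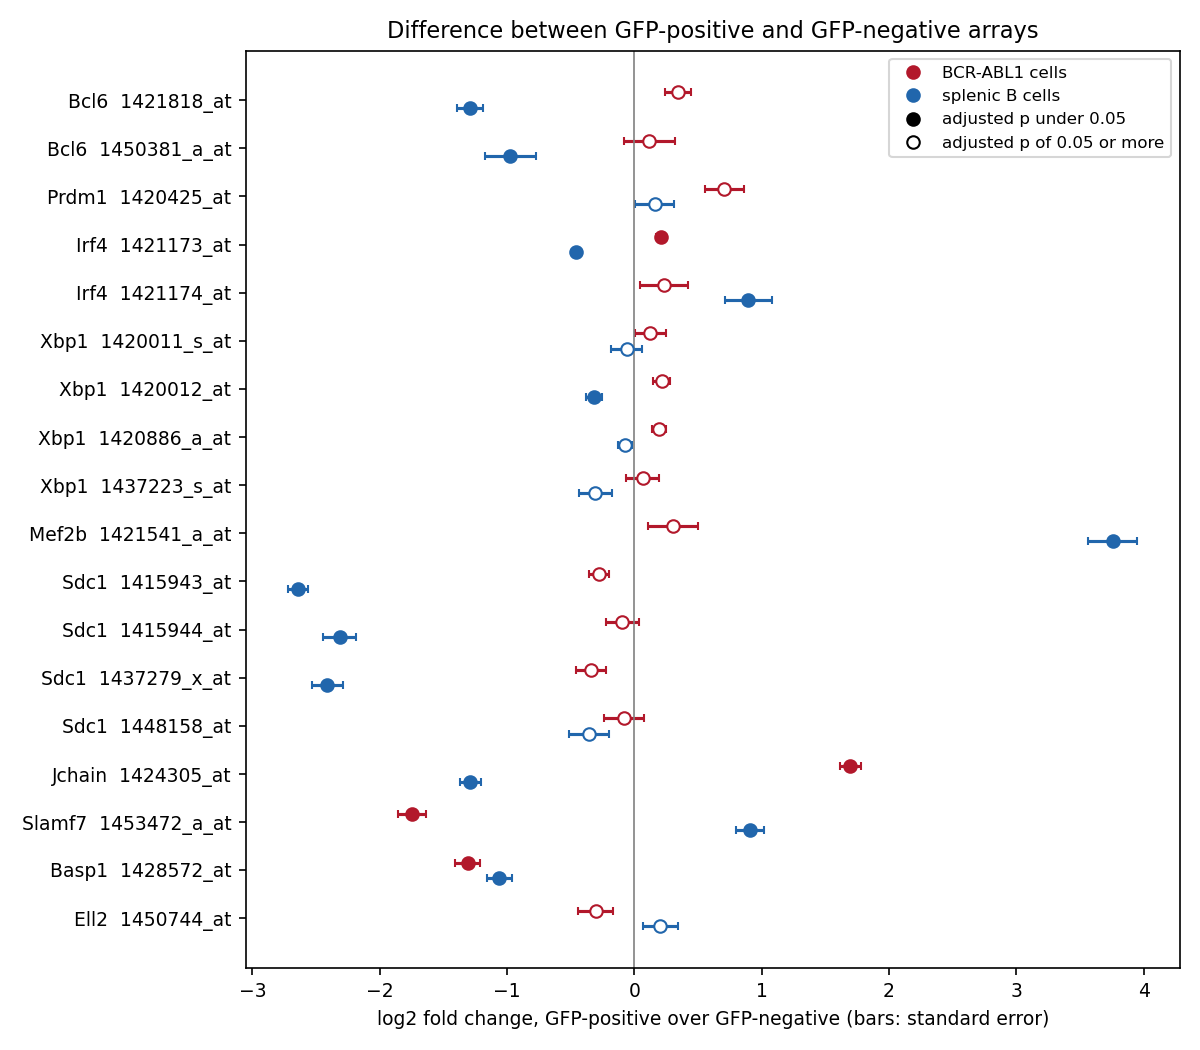
Log2 fold changes (GFP-positive minus GFP-negative, with standard errors) of the 18 tested member probe sets in BCR-ABL1 cells and in splenic B cells (2 arrays a group). Filled points passed the test. Jchain and Slamf7 passed in opposite directions in the 2 sources, at 1.70 and -1.75 in BCR-ABL1 cells and -1.29 and 0.91 in spleen. Irf4 1421173_at also did, at 0.21 in BCR-ABL1 cells and -0.46 in spleen, while Basp1 was lower in both.

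Between the sources, 12 of the 18 probe sets differed within GFP-positive cells, against 44% of all tested. Of these, 4 were higher in BCR-ABL1 cells (Sdc1 and Irf4, 22.4% of all) and 8 were lower (21.6% of all). Within GFP-negative cells 12 also differed, against 78.9% of all. None of the 12 was higher in BCR-ABL1 cells (45.5% of all) and all 12 were lower (33.4% of all).

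**Figure D2:**
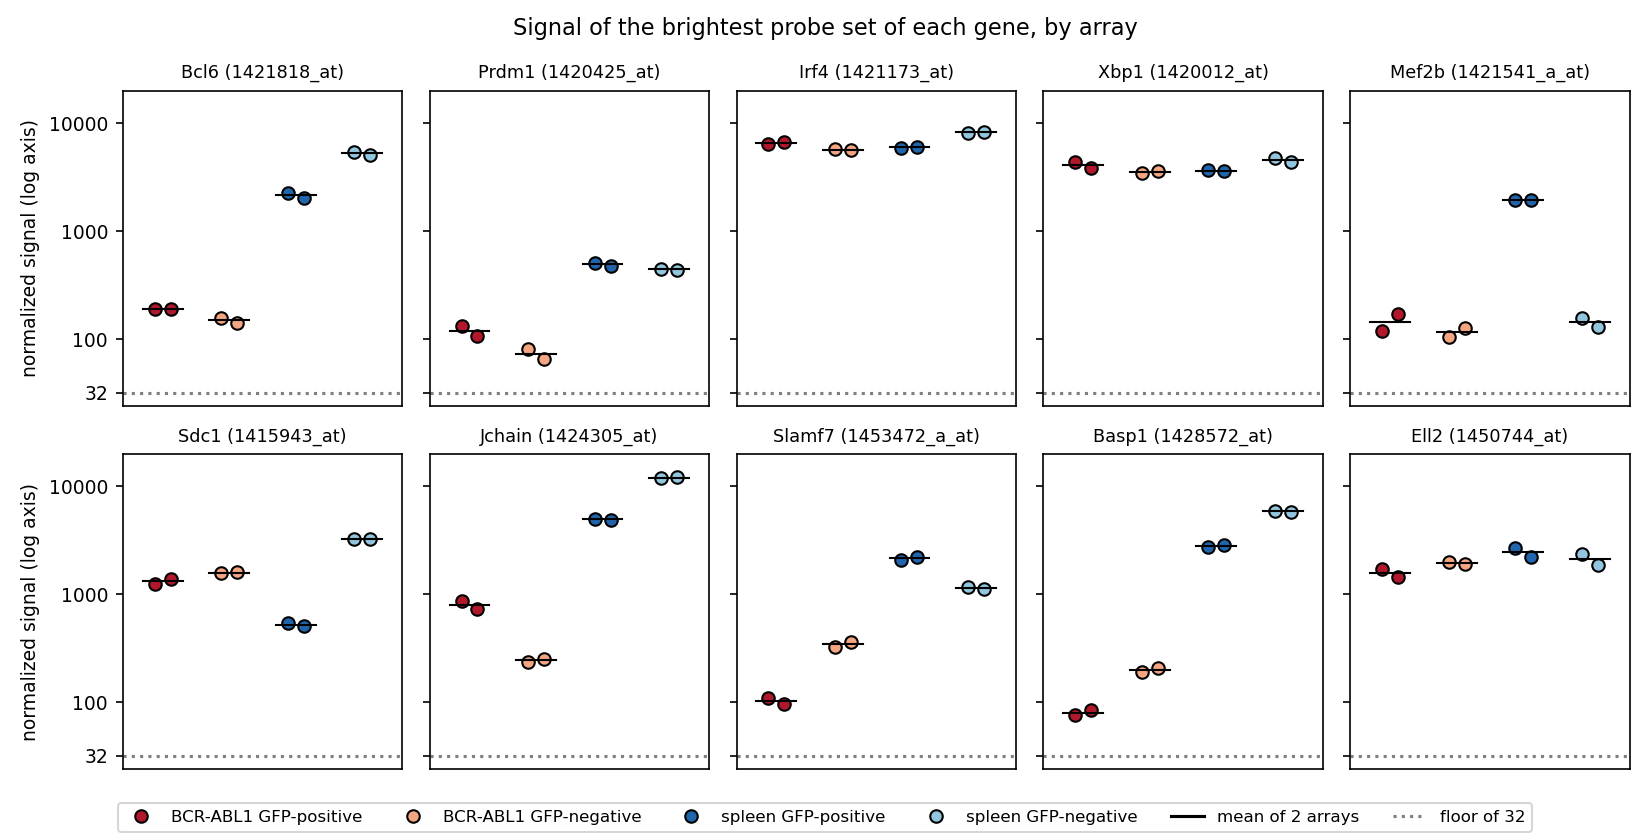
Normalized signal (log axis) of the brightest probe set of each of the 10 genes on the 8 arrays, 2 points a group with their mean as a line and the floor of 32 dotted. Probe sets differ in how brightly they report, so each panel is read on its own. Mef2b stands out in spleen GFP-positive arrays at 1925 and 1934. Bcl6, Jchain, Basp1, Sdc1, Irf4 and, by a narrow margin, Xbp1 are highest in spleen GFP-negative arrays.

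Bcl6 encodes the transcriptional repressor that germinal centre B cells require. Its brighter probe set, 1421818_at, had signals of 188 and 189.6 in BCR-ABL1 GFP-positive and 158 and 139.8 in BCR-ABL1 GFP-negative arrays. In spleen it had 2266 and 2025 in GFP-positive arrays, against 5413 and 5083 in GFP-negative arrays. The order was thus spleen GFP-negative, spleen GFP-positive, then both BCR-ABL1 groups, and no 2 groups overlapped. Bcl6 fell in spleen GFP-positive cells by 1.29 on the log2 scale (standard error 0.10, 2.45-fold, limma adjusted p = 8.14e-06), while the BCR-ABL1 fractions differed by 0.35 ± 0.10 without passing (adjusted p = 0.174). Within GFP-positive cells Bcl6 was 11.3-fold lower in BCR-ABL1 than in spleen (-3.50 ± 0.10), and within GFP-negative cells 35.3-fold lower (-5.14 ± 0.10). The second probe set, 1450381_a_at, was dimmer and moved the same way. It had 60.2 and 65.5 in BCR-ABL1 GFP-positive, 56.5 and 59.4 in BCR-ABL1 GFP-negative, 204 and 211 in spleen GFP-positive, and 328 and 506 in spleen GFP-negative arrays. Its fall in spleen was -0.97 ± 0.20 (limma adjusted p = 0.00224), and missed the threshold after arrays were shifted to the same median (-0.39, adjusted p = 0.0543). T cells can express Bcl6, and all 7 T cell markers were lower in spleen GFP-positive than in spleen GFP-negative cells. Their part in the fall of Bcl6 was not tested.

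Bcl6 has 2 starts in RefSeq, and the bases before the second are shown because Bcl6 was among the members that differed most between the sources. Promoter windows here are the 250 bases before a RefSeq start (GRCm38.p6; the array files name no build). The 9 motifs searched on both strands were ATGCAAAT (octamer), TGANTCA (AP-1), TTCNNNGAA (STAT), CACGTG (E-box), TGACGTGG (unfolded protein response element), and by name the tandem GAAA motif, the ETS-IRF composite, MEF2 and NF-kB. Matches of different motifs may overlap. They were settled after the member windows had been seen, and a match describes letters, not a binding site. The window of the second start (chr16:23981284-23981533, minus strand) holds 3 STAT matches, 168 to 160, 122 to 114 and 88 to 80 bases before the start, and 1 ETS-IRF match, 28 to 19 bases before it, all in capitals:
Bcl6 second start: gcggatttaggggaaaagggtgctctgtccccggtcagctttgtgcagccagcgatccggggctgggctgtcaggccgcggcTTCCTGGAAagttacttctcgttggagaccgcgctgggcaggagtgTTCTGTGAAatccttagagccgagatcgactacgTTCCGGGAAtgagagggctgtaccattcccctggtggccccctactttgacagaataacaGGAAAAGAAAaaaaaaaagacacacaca
Of all 32851 windows 7.02% hold at least 1 STAT match, and 9 windows (0.0274%) hold 3 or more, a count taken after the Bcl6 matches were seen. The ETS-IRF motif is in 2.3% of windows. The window of the first start (chr16:23988853-23989102) holds 1 STAT match and 1 E-box (6.02% of windows).

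Mef2b encodes a MADS-box transcription factor of germinal centre B cells, which in human cells activates BCL6. Its probe set 1421541_a_at had 119.5 and 169 in BCR-ABL1 GFP-positive, 105 and 126 in BCR-ABL1 GFP-negative, 1925 and 1934 in spleen GFP-positive, and 158 and 129 in spleen GFP-negative arrays. Only the spleen GFP-positive group was high. The other 3 groups lay close together, and the 2 BCR-ABL1 fractions overlapped. Mef2b rose 13.5-fold in spleen GFP-positive cells (3.76 ± 0.19, limma adjusted p = 8.05e-07). In BCR-ABL1 cells the GFP effect was 0.30 ± 0.19 (adjusted p = 0.710), and the 2 GFP effects differed by -3.45 ± 0.27 (adjusted p = 1.67e-05). Within GFP-positive cells Mef2b was 13.6-fold lower in BCR-ABL1 than in spleen, while within GFP-negative cells the difference was -0.31 ± 0.19 (adjusted p = 0.174). Bcl6 and Mef2b thus moved in opposite directions between the spleen fractions. On the deposited scale and after a median shift the spleen value of Mef2b was 3.96 and 4.12. The Mef2b window (chr8:70152511-70152760, plus strand) is shown because Mef2b had the largest GFP effect among the members. It holds 1 octamer, the site read by OCT factors, 85 to 78 bases before the start, in capitals, a match found in 1.6% of windows:
Mef2b: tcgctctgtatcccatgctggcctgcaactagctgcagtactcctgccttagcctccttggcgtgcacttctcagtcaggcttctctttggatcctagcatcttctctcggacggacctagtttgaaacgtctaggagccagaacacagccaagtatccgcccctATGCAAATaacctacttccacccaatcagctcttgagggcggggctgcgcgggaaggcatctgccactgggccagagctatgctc

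Irf4 encodes a factor needed for both class switching and plasma cell formation. Its bright probe set, 1421173_at, had 6459.7 and 6619 in BCR-ABL1 GFP-positive and 5700.0 and 5621 in BCR-ABL1 GFP-negative arrays. In spleen it had 5926 and 5982 in GFP-positive arrays, against 8056 and 8307 in GFP-negative arrays. All 4 groups were high and none overlapped. Irf4 rose 1.16-fold in BCR-ABL1 GFP-positive cells (0.21 ± 0.034, limma adjusted p = 0.0203). That call was lost without each of the 4 BCR-ABL1 arrays in turn (adjusted p = 0.128 to 0.203) and with limma's variance trend left out (0.266). In spleen it fell by 0.46 on the log2 scale (standard error 0.034, adjusted p = 5.94e-06). The dim probe set, 1421174_at, went the other way in spleen. It had 148 and 146 in BCR-ABL1 GFP-positive, 117 and 133 in BCR-ABL1 GFP-negative, 177 and 213 in spleen GFP-positive, and 123 and 88.7 in spleen GFP-negative arrays. It rose in spleen GFP-positive cells (0.90 ± 0.19, limma adjusted p = 0.00237), so the 2 Irf4 probe sets gave no single direction there. Between the sources, the bright probe set was 1.10-fold higher in BCR-ABL1 within GFP-positive cells (0.14 ± 0.034, adjusted p = 0.0138). This call was lost after a median shift (adjusted p = 0.158), with the trend left out (0.159), and without BCR-ABL1 GFP-positive replicate 2 (0.0925) or spleen GFP-positive replicate 1 (0.0541). Within GFP-negative cells it was 1.45-fold lower (-0.53 ± 0.034, adjusted p = 2.36e-06). The dim probe set had the opposite signs, at -0.41 ± 0.19 within GFP-positive cells (adjusted p = 0.119, and 0.0222 with those 4 arrays alone) and 0.26 ± 0.19 within GFP-negative cells (adjusted p = 0.233).

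Prdm1 encodes BLIMP1, the repressor that shuts down the B cell programme in plasma cells. It had 131 and 108 in BCR-ABL1 GFP-positive, 80.5 and 65.9 in BCR-ABL1 GFP-negative, 508 and 479.8 in spleen GFP-positive, and 445 and 438 in spleen GFP-negative arrays. Both spleen groups lay above both BCR-ABL1 groups. Neither GFP effect passed, at 0.71 ± 0.15 in BCR-ABL1 cells (limma adjusted p = 0.0617) and 0.16 ± 0.15 in spleen (adjusted p = 0.366). The BCR-ABL1 value lay near the threshold. It passed as deposited (0.78, adjusted p = 0.0488) and after a median shift (0.79, 0.0457), and at an unchanged 0.71 with a 60th percentile filter (0.0492) or 1 probe set per gene (0.0338). The spleen value depended on the scale, at 0.71 as deposited (adjusted p = 0.00381) and 0.87 after a median shift (0.00110). Relative to the median of all tested probe sets, the spleen value was -0.011 after quantile normalization and 0.36 on both other scales. Prdm1 was 4.15-fold lower in BCR-ABL1 than in spleen within GFP-positive cells (-2.05 ± 0.15) and 6.07-fold lower within GFP-negative cells (-2.60 ± 0.15, adjusted p = 1.45e-06). Its window (chr10:44458749-44458998, minus strand) is shown because, of the member windows, it and that of Slamf7 alone hold a match to TGANTCA (AP-1), in capitals. The match lies 48 to 42 bases before the start, and 6.75% of windows hold one:
Prdm1: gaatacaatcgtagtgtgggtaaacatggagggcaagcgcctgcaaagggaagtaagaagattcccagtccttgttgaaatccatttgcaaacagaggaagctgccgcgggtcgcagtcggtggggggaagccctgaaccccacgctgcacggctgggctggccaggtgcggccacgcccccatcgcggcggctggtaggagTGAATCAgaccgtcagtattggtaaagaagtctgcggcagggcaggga

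Xbp1 encodes a transcription factor whose spliced form enlarges the endoplasmic reticulum. All 4 of its probe sets were bright in every group, and these arrays do not separate spliced from unspliced message. The brightest, 1420012_at, had 4316 and 3871 in BCR-ABL1 GFP-positive, 3469 and 3575 in BCR-ABL1 GFP-negative, 3638 and 3625 in spleen GFP-positive, and 4722 and 4328 in spleen GFP-negative arrays. The groups lay within a narrow band. In BCR-ABL1 cells the 4 probe sets had GFP effects of 0.07 to 0.22, none of which passed. In spleen 1420012_at fell by 0.32 on the log2 scale (standard error 0.065, limma adjusted p = 0.00228), and the other 3 had -0.06, -0.07 and -0.31. Directions of Xbp1 in spleen turned with the scale. After a median shift 1420886_a_at had 0.33, 1420011_s_at 0.40 and 1420012_at 0.017, and on the deposited scale 1420886_a_at had 0.17. Relative to the median of all tested probe sets all 4 were below 0 on all 3 scales, from -0.11 to -0.49. Within GFP-positive cells no Xbp1 probe set passed between the sources (0.01 to 0.17). Here 1420012_at (0.17, adjusted p = 0.0674) passed under 3 of 20 other settings and 1420886_a_at (0.15, adjusted p = 0.0527) under 7 of 19, both higher in BCR-ABL1. Within GFP-negative cells 1420012_at and 1437223_s_at were lower in BCR-ABL1 (-0.36 each, adjusted p = 0.00108 and 0.0298). Both calls were lost after a median shift (-0.083 and 0.045). That of 1437223_s_at was also lost as deposited (-0.067, limma adjusted p = 0.650), with no filter on dim probe sets (0.112) and without the variance trend (0.0570). It was lost as well without either BCR-ABL1 GFP-negative or either spleen GFP-negative array (-0.30 to -0.42).

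Ell2 encodes an elongation factor that in plasma cells favours the secreted form of the heavy chain message. Its tested probe set, 1450744_at, had 1729 and 1447 in BCR-ABL1 GFP-positive, 2006 and 1898 in BCR-ABL1 GFP-negative, 2686 and 2209.7 in spleen GFP-positive, and 2364 and 1888 in spleen GFP-negative arrays. The replicates spread widely and the spleen fractions overlapped. Neither GFP effect passed (-0.30 ± 0.14 in BCR-ABL1 cells, 0.21 ± 0.14 in spleen, limma adjusted p = 0.481 and 0.207). The spleen value did pass on the deposited scale (0.52) and after a median shift (0.68). Ell2 was 1.54-fold lower in BCR-ABL1 than in spleen within GFP-positive cells (-0.62 ± 0.14, adjusted p = 0.00758). That call was lost without BCR-ABL1 GFP-positive replicate 2 or spleen GFP-positive replicate 1 (adjusted p = 0.0621 and 0.0620) and with no filter on dim probe sets (0.0593).

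Jchain encodes the joining chain that links IgM pentamers and IgA dimers and is abundant in antibody-secreting cells. Its probe set 1424305_at had 859.8 and 735 in BCR-ABL1 GFP-positive arrays, against 238 and 253 in BCR-ABL1 GFP-negative arrays. In spleen it had 4942 and 4922 in GFP-positive arrays, against 11850.3 and 12231 in GFP-negative arrays. No groups overlapped, and the GFP-positive fraction was the higher one in BCR-ABL1 cells and the lower one in spleen. Jchain rose 3.24-fold in BCR-ABL1 GFP-positive cells (1.70 ± 0.084, limma adjusted p = 7.19e-05). In spleen it fell 2.44-fold in GFP-positive cells (-1.29 ± 0.084, adjusted p = 2.70e-06), and the 2 effects differed by 2.98 ± 0.12 (adjusted p = 6.29e-07). Relative to spleen, Jchain was 6.20-fold lower in BCR-ABL1 GFP-positive cells (-2.63 ± 0.084) and 49.1-fold lower in BCR-ABL1 GFP-negative cells (-5.62 ± 0.084).

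Sdc1 encodes syndecan-1 (CD138), a heparan sulphate proteoglycan that marks plasma cells and in the mouse also pre-B cells. Its brightest probe set, 1415943_at, had 1248 and 1384 in BCR-ABL1 GFP-positive, 1560.2 and 1619 in BCR-ABL1 GFP-negative, 544 and 508 in spleen GFP-positive, and 3284 and 3263 in spleen GFP-negative arrays. The 2 spleen fractions were thus the extremes, with the BCR-ABL1 arrays between them. Sdc1 fell 6.23-fold in spleen GFP-positive cells by this probe set (-2.64 ± 0.078, limma adjusted p = 5.84e-08). Probe sets 1415944_at (-2.31 ± 0.13) and 1437279_x_at (-2.41 ± 0.12) fell with it. In BCR-ABL1 cells the 4 probe sets had -0.08 to -0.34, and none passed. Within GFP-positive cells the same 3 were higher in BCR-ABL1 than in spleen, by 1.10 to 1.56 (2.14-fold to 2.95-fold). Within GFP-negative cells they were lower, by 0.66 to 1.04 on the log2 scale. Of these last calls, those of 1415944_at (0.023) and 1437279_x_at (-0.36, adjusted p = 0.0507) were lost after a median shift. On the deposited scale 1415944_at had -0.089 (adjusted p = 0.518). The fourth probe set, 1448158_at, stayed dim, from 63.3 to 96.3 on all arrays, and passed in none of the 5 comparisons, though its spleen value passed on the deposited scale (-0.44).

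Slamf7 encodes a self-binding receptor of plasma cells and NK cells. Its probe set 1453472_a_at had 109 and 97.1 in BCR-ABL1 GFP-positive arrays, against 327 and 364 in BCR-ABL1 GFP-negative arrays. In spleen it had 2099 and 2202 in GFP-positive arrays, against 1168 and 1124 in GFP-negative arrays. The pattern was the reverse of that of Jchain: lower with GFP in BCR-ABL1 cells and higher with GFP in spleen. Slamf7 fell 3.35-fold in BCR-ABL1 GFP-positive cells (-1.75 ± 0.11, limma adjusted p = 0.000201) and rose 1.88-fold in spleen GFP-positive cells (0.91 ± 0.11, adjusted p = 9.09e-05). The 2 effects differed by -2.65 ± 0.15 (adjusted p = 3.36e-06). The spleen rise was larger on the deposited scale (1.36) and after a median shift (1.52). Between the sources, Slamf7 was 20.9-fold lower in BCR-ABL1 GFP-positive cells (-4.39 ± 0.11) and 3.32-fold lower in BCR-ABL1 GFP-negative cells (-1.73 ± 0.11). The NK cell marker sum was 1309 and 1321 in spleen GFP-positive arrays, against 6323 and 6757 in spleen GFP-negative arrays. The part of NK cells and of other cells in the Slamf7 signal was not tested. Its window (chr1:171649000-171649249, minus strand) is shown beside that of Prdm1, since both match TGANTCA, as TGACTCA here and as TGAATCA in Prdm1. The match, in capitals, lies 42 to 36 bases before the start:
Slamf7: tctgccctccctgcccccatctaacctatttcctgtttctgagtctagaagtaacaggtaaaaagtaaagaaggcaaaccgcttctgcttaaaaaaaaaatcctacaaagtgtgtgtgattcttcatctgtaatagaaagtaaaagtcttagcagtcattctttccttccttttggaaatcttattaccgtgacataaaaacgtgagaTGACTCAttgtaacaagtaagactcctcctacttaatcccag
The Basp1 window holds 2 overlapping NF-kB matches (3.9% of windows hold at least 1). The windows of Irf4, Xbp1, Sdc1, Jchain and Ell2 hold none of the 9 motifs, which says only that these letters are not in those bases.

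Basp1 encodes a membrane-bound protein best known from nerve endings, which also acts as a corepressor of WT1. Its probe set 1428572_at had 76.0 and 85.0 in BCR-ABL1 GFP-positive arrays, against 189 and 209.6 in BCR-ABL1 GFP-negative arrays. In spleen it had 2759 and 2875 in GFP-positive arrays, against 5973 and 5770.0 in GFP-negative arrays. The GFP-positive fraction was the lower one in both sources. Basp1 fell 2.48-fold in BCR-ABL1 (-1.31 ± 0.099, limma adjusted p = 0.000483) and 2.08-fold in spleen (-1.06 ± 0.099, adjusted p = 2.19e-05). The difference between these effects was -0.25 ± 0.14 (adjusted p = 0.146), and passed on the deposited scale (-0.52) and after a median shift (-0.67). Basp1 was also lower in BCR-ABL1 than in spleen, at -5.13 ± 0.099 within GFP-positive cells and 29.5-fold within GFP-negative cells (-4.88 ± 0.099).

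**Figure D3:**
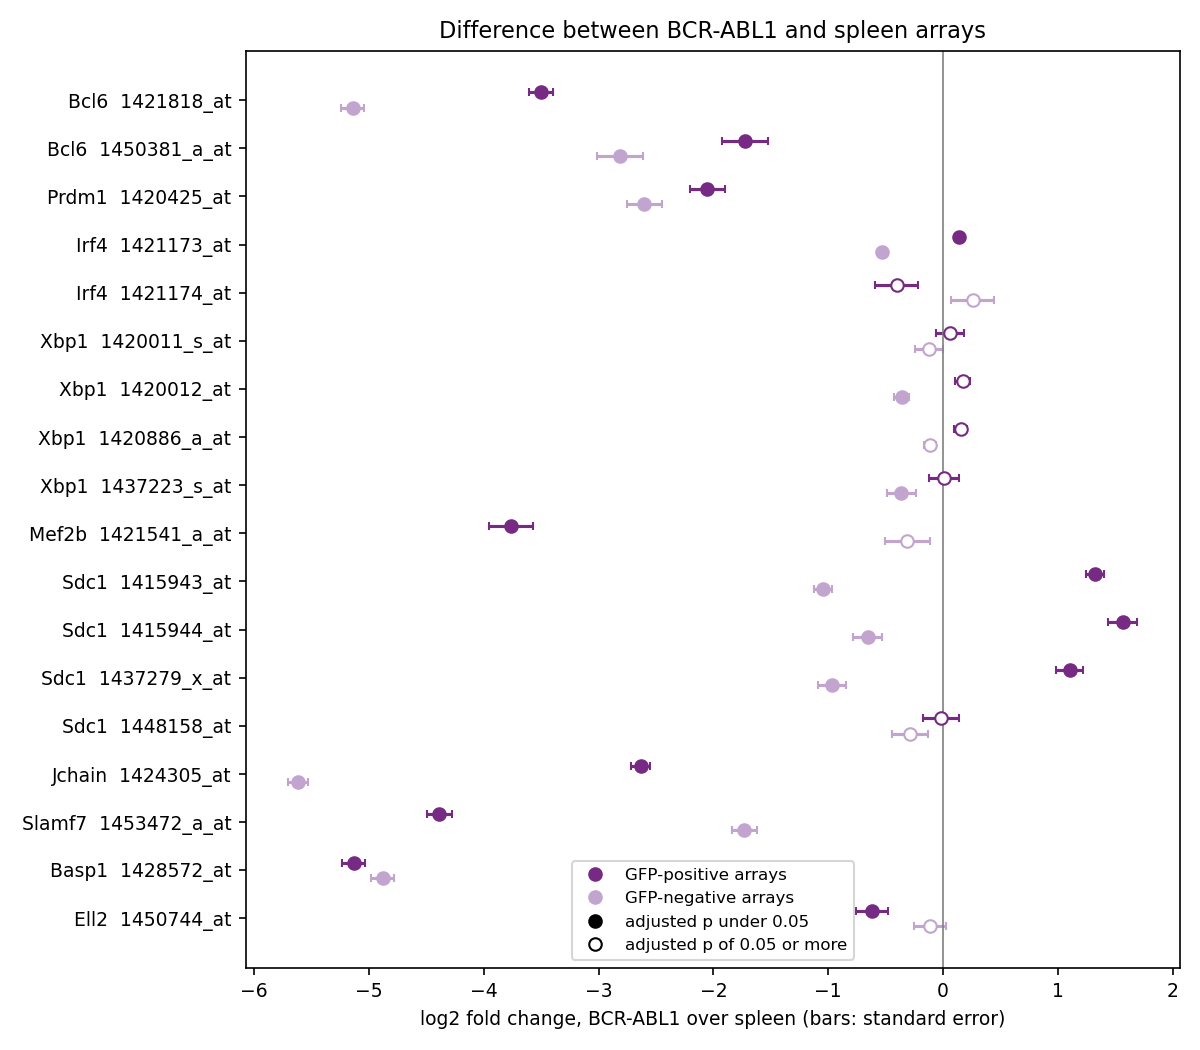
Log2 fold changes (BCR-ABL1 minus spleen, with standard errors) of the 18 tested member probe sets within GFP-positive and within GFP-negative cells (2 arrays a group). The 3 brighter Sdc1 probe sets are higher in BCR-ABL1 within GFP-positive cells (1.10 to 1.56) and lower within GFP-negative cells (-0.66 to -1.04). Mef2b passed as lower than in spleen only within GFP-positive cells (-3.76), though its signal was low in both BCR-ABL1 fractions.

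The scale mattered for the spleen comparison. The median GFP effect of all tested probe sets in spleen was 0.17 after quantile normalization, 0.35 as deposited and 0.51 after a median shift, and the share of calls that were higher in GFP-positive cells was 57.4%, 65.2% and 71.1%. Within GFP-negative cells, the share of calls higher in BCR-ABL1 was 57.6%, 66.4% and 70.6%, and for the difference of the GFP effects the positive share was 42.3%, 33.9% and 28.4%. Mef2b, Slamf7, Jchain, Basp1, the 3 brighter Sdc1 probe sets, both Irf4 probe sets and the brighter Bcl6 probe set kept their spleen direction and call on all 3 scales.

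**Figure D4:**
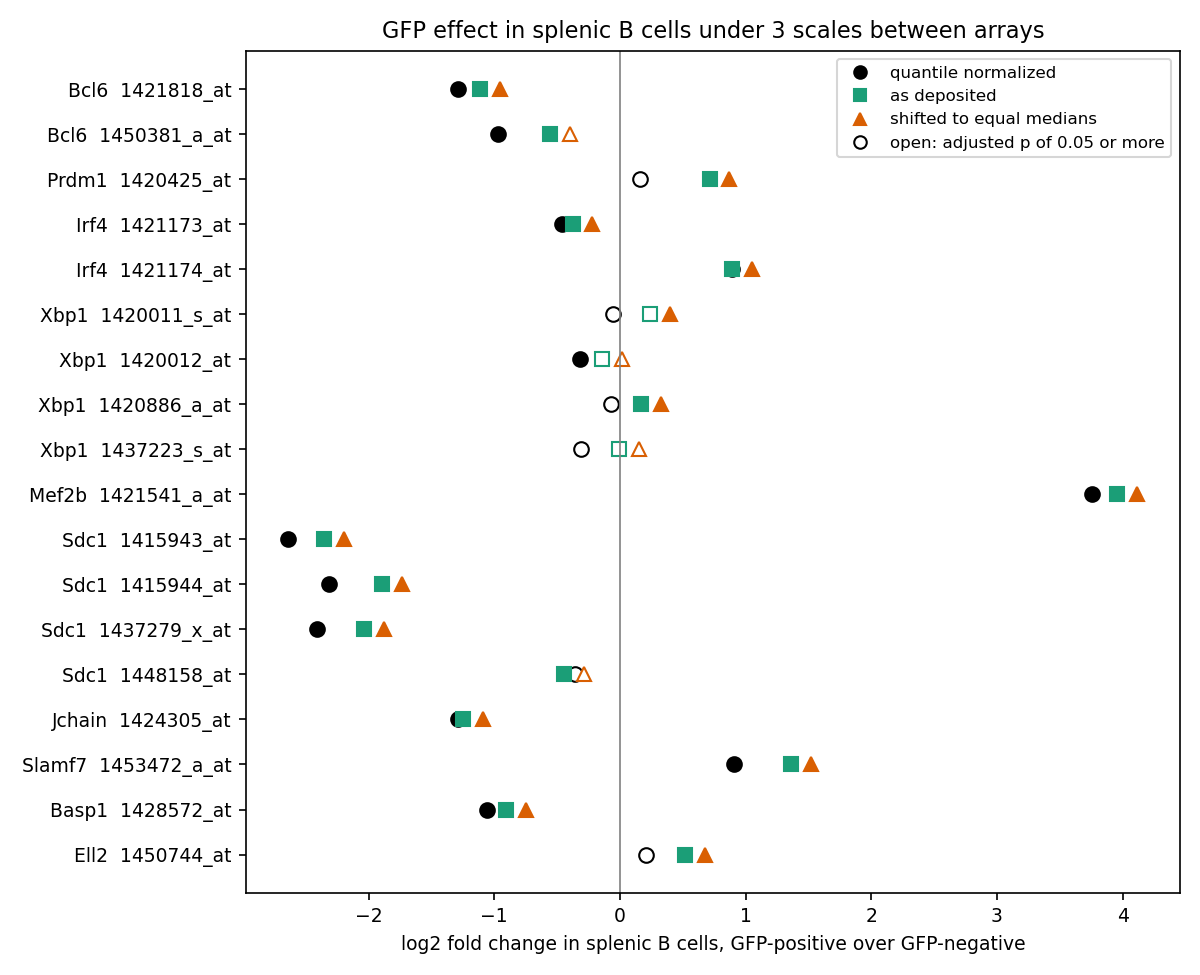
Log2 fold changes in spleen (GFP-positive minus GFP-negative) of the 18 tested member probe sets on 3 scales of the same arrays: quantile normalized, as deposited, and shifted to the same median. Mef2b at 3.76, 3.96 and 4.12 and Sdc1 1415943_at at -2.64, -2.35 and -2.20 lie far from 0 on each scale, whereas Xbp1 and Prdm1 depend on the scale.

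The genes around the members were read through 8 lists, each gene by its brightest tested probe set. In BCR-ABL1 cells few of them differed between the fractions. Of all tested probe sets, 1.57% passed as higher and 1.23% as lower in GFP-positive cells of this source. Among the 15 tested germinal centre genes, the 18 genes of the XBP1 and secretory list, the 6 genes repressed by BLIMP1, the 10 elongation partners of ELL2 and the 3 BCL6 corepressors, none passed in the limma test. Their medians ran from -0.040 to 0.018, against -0.0023 over all tested probe sets. Of the 8 tested genes known to be repressed by BCL6, 3 rose in GFP-positive cells: the survival gene Bcl2 (0.58 ± 0.059), the cyclin Ccnd2 (0.37 ± 0.046) and the cell cycle inhibitor Cdkn1a (0.27 ± 0.052). On each of the other scales 2 of the 8 passed, 1 germinal centre gene passed as higher and 1 plasma cell gene as lower. Of 14 plasma cell genes, Zbtb20, a factor needed for long-lived plasma cells, rose (0.51 ± 0.099, adjusted p = 0.0409). Of 12 relatives of the members, Slamf1, another SLAM receptor, fell as Slamf7 did (-0.79 ± 0.16, adjusted p = 0.0463).

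In spleen most of the secretory list was higher in GFP-positive cells. Of its 18 tested genes 14 rose and 1 fell (16 and 1 on the deposited scale, 17 and 0 after a median shift), with a median of 0.63 against 0.17 over all tested probe sets, of which 44.9% rose and 33.3% fell. The endoplasmic reticulum proteins Sdf2l1 (3.23 ± 0.11), Atf6 (1.73 ± 0.099) and Sec24d (1.73 ± 0.19) rose most, and Ern1, the sensor that splices Xbp1, fell (-0.87 ± 0.11). Of 14 plasma cell genes 6 rose and 6 fell, against 44.9% and 33.3% of all tested probe sets (median -0.0083; 7 and 3 with 0.28 as deposited, 8 and 3 with 0.44 after a median shift). Fkbp11 (1.92 ± 0.17) and Derl3 (1.58 ± 0.17), of the secretory pathway, were among those that rose, while Cd28 fell, averaging 36.9 in GFP-positive cells, with 1 array at the floor, against 657 in GFP-negative cells. Cd28 is also in the T cell marker list, and all 7 T cell markers were lower in these GFP-positive arrays. Of 15 germinal centre genes 7 rose and 4 fell, near the share of all tested probe sets (44.9% higher, 33.3% lower; median 0.089; 8 and 4 as deposited, 10 and 2 after a median shift). The histone methyltransferase Ezh2 (2.22 ± 0.11) and Mybl1 (158 in GFP-positive cells against 49.9 in GFP-negative cells, with 1 GFP-negative array at the floor) rose, and Foxo1 fell (-1.39 ± 0.061).

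The lists of targets and relatives divided in spleen as well. Of the 8 genes repressed by BCL6, 5 rose and 1 fell, against 44.9% and 33.3% of all tested (median 0.50; 5 and 1 with 0.99 as deposited, 6 and 1 with 1.14 after a median shift). The checkpoint kinase Chek1 rose, averaging 1798 in GFP-positive and 32.9 in GFP-negative cells (1 GFP-negative array at the floor, so that a fold would be a lower bound), Ccnd2 rose (1.25 ± 0.046) and Id2 fell (-1.95 ± 0.12). Of the 6 genes repressed by BLIMP1, 2 rose and 3 fell (median -0.086), Pax5 (1.40 ± 0.19) among the first and Id3 (-1.45 ± 0.075) among the second. Of the 10 elongation partners of ELL2, 4 rose and 5 fell (median -0.15), with Mllt1 at 1.06 ± 0.13 and Aff1 at -1.06 ± 0.058. As deposited and after a median shift the medians of these 2 lists were above 0 (0.16 and 0.32 for the BLIMP1 list, 0.23 and 0.39 for the ELL2 list) but still under those of all tested probe sets (0.35 and 0.51). Of the 12 relatives, 6 rose and 5 fell, against 44.9% and 33.3% of all tested (median 0.064; 6 and 3 with 0.29 as deposited, 8 and 3 with 0.45 after a median shift). Slamf1 rose as Slamf7 did (2.47 ± 0.16), and the SLAM receptor Cd244a (-3.48 ± 0.12) and the MEF2 family member Mef2d (-1.25 ± 0.081) fell. Of the 3 tested BCL6 corepressors, Hdac3 rose (0.39 ± 0.086) and Bcor fell (-0.69 ± 0.074).

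**Figure D5:**
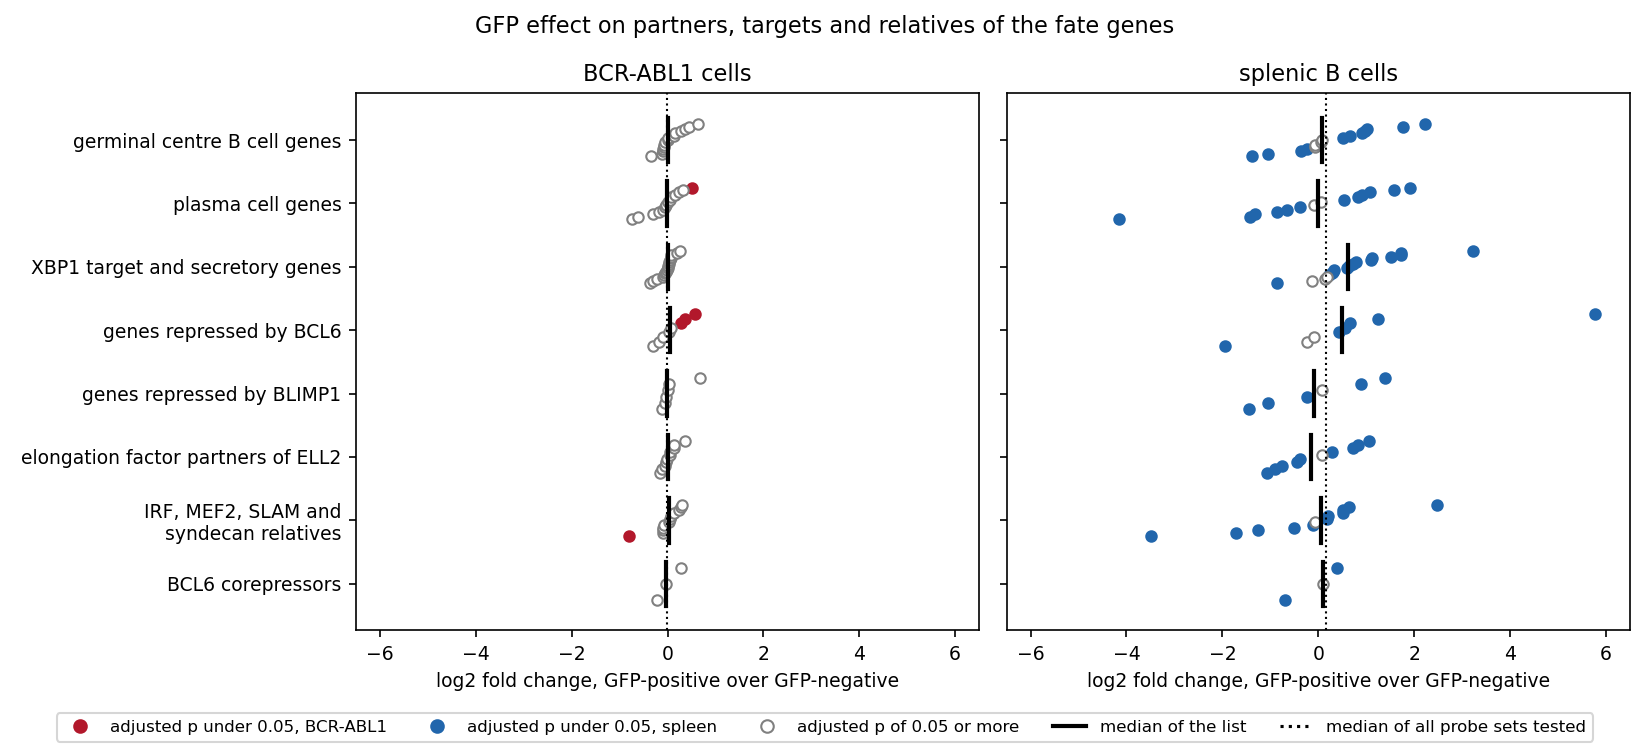
Log2 fold changes (GFP-positive minus GFP-negative) of the tested genes of the 8 lists in BCR-ABL1 cells and in splenic B cells, 1 point a gene, with the list medians. In BCR-ABL1 cells the points lie near 0, and in spleen the secretory list has a median of 0.63, with 14 of 18 genes called higher (quantile normalized scale).

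Between the sources, the secretory list was lower in BCR-ABL1 GFP-positive than in spleen GFP-positive cells, with 0 of 18 genes higher and 14 lower. Its median was -0.37, against -0.026 over all tested probe sets, of which 22.4% were higher and 21.6% lower. Edem1 (-2.30 ± 0.077) and Atf6 (-1.87 ± 0.099) led the lower genes. Plasma cell genes had 1 higher and 10 lower of 14 (median -1.04), and Eaf2 was among the lower ones (-3.76 ± 0.099). Germinal centre genes had 3 higher and 8 lower of 15 (median -0.82), with Lmo2 at -4.89 ± 0.11. The activation marker Cd83 and the migration receptor Gpr183 were at the floor of 32 in all 4 BCR-ABL1 arrays, and averaged 10732 and 2845 in spleen GFP-positive arrays. Among genes repressed by BLIMP1, 3 were higher and 1 was lower. The lower one was Ciita, the class II transactivator, at the floor in all 4 BCR-ABL1 arrays and 1626 in spleen GFP-positive arrays. Within GFP-negative cells 8 genes of the secretory list were higher in BCR-ABL1 and 5 lower (median 0.084, against 0.17), near the 45.5% and 33.4% of all tested probe sets. The counts were 11 and 4 as deposited (median 0.34, against 0.39) and 13 and 3 after a median shift (0.45, against 0.51). Plasma cell genes were lower in BCR-ABL1 within GFP-negative cells too, with 3 higher and 9 lower of 14 (median -0.86). Germinal centre genes had 2 higher and 11 lower of 15 there (median -0.67). The medians of these plasma cell and germinal centre lists were -0.40 and -0.28 as deposited, and -0.29 and -0.16 after a median shift.

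Profiles over the 8 arrays describe which measured genes ran most like each member. These correlations are descriptions, since the arrays share groups and the spleen GFP-negative arrays stood apart. Among the members, the brightest probe sets of Bcl6 and Jchain (Pearson r = 0.975) and of Bcl6 and Basp1 (0.969) ran alike. So did those of Prdm1 and Jchain (0.962) and of Bcl6 and Prdm1 (0.953), and Mef2b ran against Sdc1 (-0.829). Of 12213 other genes, that most like Bcl6 was Nfkbia (r = 0.999). For Mef2b it was Cd2bp2 (0.998), for Jchain Irf7 (0.997), for Sdc1 Arhgef18 (0.997), for Basp1 Clec2i (0.998), for Prdm1 Ifit1 (0.996), for Slamf7 Cd36 (0.993) and for Irf4 Pde4b (0.992). Such likeness was common for some members and rare for others: 512 genes exceeded an r of 0.95 with Bcl6, 3 did with Xbp1 and 0 with Ell2.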

How the data were processed

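For the 8 samples, total RNA was the starting material and biotin the label on mouse Affymetrix arrays, per the labels' protocols. GCOS 1.3 is named in the submitters' processing notes. The deposited values are linear intensities of 45101 probe sets. How the authors summarised and scaled them is not given in the sources used here. From the deposited intensities, arrays were quantile normalized, values under 32 were set to 32, and log2 was taken. Of 45037 probe sets that are not controls, 27022 with a mean log2 at or above the 40th percentile (5.67, a signal of 51.0) were tested with limma 3.58.1 in R 4.3.3 (lmFit, eBayes with trend, 4 group means, 4 residual degrees of freedom), with Benjamini-Hochberg adjustment over all of them and a threshold of 0.05. The 5 comparisons were GFP-positive against GFP-negative cells of each source, the difference of these effects, and BCR-ABL1 against spleen within each fraction. On simulated data the fit returned the set changes without bias but did not call every changed probe set, and the recovery minimum was lowered after a first run missed it. Each member probe set is named. In the lists, genes could be named that were among the 3 largest called changes or close partners or relatives of a member, with the 2 closest profiles of each member, and those printed are a subset. Members, lists and markers were chosen with earlier results of these data known. Alternatives were 2 other scales, 2 other floors, log2 of the value plus 32 without a floor, 2 other filters, 2 other variance fits, 1 probe set per gene, the replicate block, leaving out each array, and only the 4 arrays of a comparison. The lists on other scales, and effects relative to the median, were added after seeing the data. Promoter windows are from RefSeq (GRCm38.p6). Aid's own gene is not reported here. With 2 arrays a group, the number of arrays limits precision.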

Additional observations from a re-analysis of the deposited data

Results flagged for a closer look

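For 12 of the 18 tested member probe sets the GFP effect in BCR-ABL1 cells differed from that in spleen (limma, difference of the 2 effects, adjusted p under 0.05; 69.8% of all tested probe sets did so). In each value below, a positive number means a higher GFP effect in BCR-ABL1 cells. The values were 2.98 for Jchain, 2.36 (1415943_at), 2.22 (1415944_at) and 2.07 (1437279_x_at) for Sdc1, and 1.64 (1421818_at) and 1.09 (1450381_a_at) for Bcl6. They were 0.67 for Irf4 1421173_at, and 0.53 (1420012_at) and 0.27 (1420886_a_at) for Xbp1. They were negative for Mef2b (-3.45), Slamf7 (-2.65) and Ell2 (-0.51). Jchain, Slamf7 and Irf4 1421173_at passed in opposite directions in the 2 sources, whereas Sdc1, Bcl6, Mef2b and Xbp1 1420012_at passed in spleen alone. Xbp1 1420886_a_at and Ell2 passed in neither source. The Irf4 call in BCR-ABL1 cells was lost without each BCR-ABL1 array in turn and without the variance trend. The spleen GFP-negative arrays enter every one of these differences, and they also held myeloid, T cell and NK cell markers, whose part was not tested. The Ell2 difference (adjusted p = 0.0478) missed the threshold without BCR-ABL1 GFP-positive replicate 2, either BCR-ABL1 GFP-negative array, spleen GFP-positive replicate 1 or spleen GFP-negative replicate 2 (-0.34 to -0.55, adjusted p = 0.0899 to 0.171), and also with no filter, without the variance trend and with a floor of 64 (adjusted p = 0.0656 to 0.160). The Xbp1 1420886_a_at difference missed it without BCR-ABL1 GFP-positive replicate 1 (0.23, adjusted p = 0.0644), without the variance trend (0.0568) and as deposited (0.021, 0.822), and was -0.13 after a median shift. After a median shift the differences of Xbp1 1420012_at (0.20, adjusted p = 0.140) and Bcl6 1450381_a_at (0.50, 0.0826) also missed it. As deposited these were 0.35 (0.0143) and 0.65 (0.0370).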

How the results depend on the processing

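Across 20 other settings, the calls and directions of Jchain, Slamf7 and Basp1 in both GFP comparisons, and of Mef2b and the 3 brighter Sdc1 probe sets in spleen, were kept (19 settings for Sdc1 1415944_at and 1437279_x_at, which 1 probe set per gene leaves out). Of values that passed under either setting, the sign turned for Xbp1 and Sdc1 only, with the scale. In spleen Xbp1 1420886_a_at had 0.17 as deposited and 0.33 after a median shift, when 1420011_s_at had 0.40 and 1420012_at 0.017. Within GFP-negative cells Xbp1 1420886_a_at had 0.14 as deposited and 0.25 after a median shift, when 1437223_s_at had 0.045 and Sdc1 1415944_at 0.023. The GFP difference of Xbp1 1420886_a_at was -0.13 after a median shift. The cause was not tested. Among all probe sets, 756 were called in BCR-ABL1 cells, 197 to 1091 without 1 array (197 and 214 without each GFP-positive and 225 and 262 without each GFP-negative BCR-ABL1 array, 502 and 503 without each spleen GFP-positive array), and 2159 with the 4 BCR-ABL1 arrays alone. Member calls there numbered 4, 3 to 4 without 1 array, and 8 with those 4 arrays alone, which added Prdm1, 2 Sdc1 probe sets and Ell2. With 1 probe set per gene (fewer tested) 9426 were called in spleen, 8439 for the difference, 6149 within GFP-positive and 9589 within GFP-negative cells. The replicate numbers are shared across groups. Same-numbered arrays deviated together (correlations of 0.11 to 0.27), but with 2 numbers that does not show pairing. With the replicate number as a block, 748 probe sets and 5 members (with Prdm1, adjusted p = 0.0498) were called in BCR-ABL1 cells and 21713 and 14 in spleen. The block gave 19609 and 14 for the difference, 12992 and 14 within GFP-positive (with Xbp1 1420012_at and 1420886_a_at, adjusted p = 0.0375 and 0.0376), and 22067 and 12 within GFP-negative cells. Signals near the floor of 32, as of Bcl6 1450381_a_at and Sdc1 1448158_at, limit what small changes could be seen.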
